A study of Mus musculus with 6 samples.

Results

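The genes described here are 49 axon guidance ligands, receptors and adhesion molecules, chosen by name from 5 families: Slits and Robos, netrins and their receptors, ephrins and Eph receptors, semaphorins with plexins and neuropilins, and axonal adhesion molecules. Of the 49, 48 had a probe set that maps to them alone, as did 18193 genes on the array; Ephb2 was not analysed here. These 48 genes had 138 such probe sets, and each gene was read from its brightest one, the probe set with the highest mean log2 signal over the 6 arrays. Of the 48, 42 had a mean log2 signal over 7 in OC1-KO or in WT, the level the study set for expression, as did 10526 genes in all. The other 6 (Robo3, Slit3, Unc5d, Sema3c, Plxna4 and Alcam) stayed under it in both genotypes.

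The data are Affymetrix arrays of total RNA from isolated embryonic mouse retinas, 1 array per embryo, of 3 OC1-KO embryos, which lack a functional Onecut1, and 3 wild type (WT) embryos. Onecut1 (OC1) is a transcription factor made in retinal precursor cells and later in horizontal cells. The study also saw its RNA in some cells of the ganglion cell layer. The labels give the age as E14 and the series description as E14.5. All embryos came from a line of mixed strain background, made with R1 embryonic stem cells and Swiss mice and then crossed to C57Bl/6, and the allele was lost in the germ line rather than in one cell type. The labels number the embryos of each genotype 1 to 3, and embryos of the same number resembled each other, so OC1-KO and WT values are also given by number.

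Axon guidance molecules steer the growing tip of an axon: secreted or membrane-bound ligands attract or repel it through receptors that remodel its cytoskeleton. At this age ganglion cell axons run across the inner retina toward the optic disc, enter the optic nerve and meet the choice at the optic chiasm between crossing and staying on the same side. Netrin-1 at the optic disc draws them out of the eye, Slits acting on Robos keep them in their layer and on their course, Ephs and ephrins sort them at the midline and in the brain, and semaphorins repel them or hold neurites back from layers.

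Signals of the array as a whole bear on these values. The probe set for Onecut1 gave log2 signals of 9.02, 8.31 and 9.67 in OC1-KO 1, 2 and 3, and of 9.25, 8.76 and 9.00 in WT 1, 2 and 3. No source used here places it inside or outside the deleted part, and so it does not check the genotype. Of the gene lists published with the study, one heads these arrays as GEO does and another puts the opposite genotype over the same values; GEO's labels were followed, and every direction below rests on them. Summed linear signals over 13 ganglion cell markers above the filter and 1 below it were 77013 to 100572 in OC1-KO and 75336 to 95805 in WT. Of the 13, 6 had the higher mean in OC1-KO and 7 the lower, with a median difference of -0.01. By embryo number, 4 (Dlx2, Ebf1, Elavl4 and Isl1) were lower in OC1-KO in all 3 pairs (30.8%, against 12.8% of all genes). Higher in all 3 pairs were 0, against 10.9% of all genes. Both embryos numbered 3 stood apart in markers of lens, blood and the mesenchyme around the eye. The 10 lens markers summed to 11668 in OC1-KO 3, against 228 and 411 in OC1-KO 1 and 2, and to 23866 in WT 3, against 288 and 250 in WT 1 and 2. The 5 red blood cell markers summed to 23979 in OC1-KO 3 and at most 730 in OC1-KO 1 and 2, and to 16555 in WT 3 and at most 372 in WT 1 and 2. The 8 mesenchyme markers, collagens among them, summed to 2318 in OC1-KO 3, against 456 and 716 in OC1-KO 1 and 2, and to 2694 in WT 3, against 655 and 464 in WT 1 and 2. The 7 pigment epithelium markers summed to 670, 775 and 2077 in OC1-KO 1, 2 and 3, and to 471, 319 and 912 in WT 1, 2 and 3, higher in OC1-KO in each pair. The 4 of them above the filter all had the higher mean in OC1-KO, with a median difference of 0.98 on the log2 scale. All 4 passed the filter through their OC1-KO means alone, so a higher mean there was a condition of their being counted. The 3 below the filter, Tyr, Tyrp1 and Rpe65, differed by 0.72, -0.03 and 0.28. Of the 7, Rpe65 gave log2 signals of at most 3.69 in any array and Tyr of at most 6.46. The part of these other tissues in the values below was not tested. In whole retinas, fewer cells of a type and less RNA per cell cannot be told apart.

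The axon guidance genes as a group had no common direction in OC1-KO against WT retinas. Of the 42 expressed members, 23 had the higher mean in OC1-KO and 19 the lower, with a median difference (OC1-KO minus WT) of 0.02 on the log2 scale and a mean of -0.04. Over all 10526 genes, 5154 were higher and 5372 lower, with a median of -0.00. By limma, a moderated test fitted over all 20888 probe sets above the filter, 1 member was lower at an unadjusted p under 0.05, Nrp2, against a background of 0.542% of genes lower, and 0 were higher, against 0.276%. With the embryo number as a block, limma put 2 members under this threshold, Nrp2 and Robo1, both lower, against 2.00% of genes lower, and 0 higher, against 1.08%. By the methods' t-test, two-tailed and unadjusted, 1 was lower, Nrp2, against 0.808% of genes, and 0 were higher, against 0.846%. Nrp2 and Unc5a, both among the 19 lower, passed the filter through their WT means alone. For them a mean lower in OC1-KO was a condition of being counted. After Benjamini-Hochberg adjustment over all probe sets, 0 members and 0 probe sets of any gene had p under 0.05 by limma, by limma with the block or by the methods' t-test. Of the 20888 probe sets, 210 (1.01%) had an unadjusted p under 0.05 by limma, 913 (4.37%) by limma with the block and 316 (1.51%) by the methods' t-test.

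**Figure D1:**
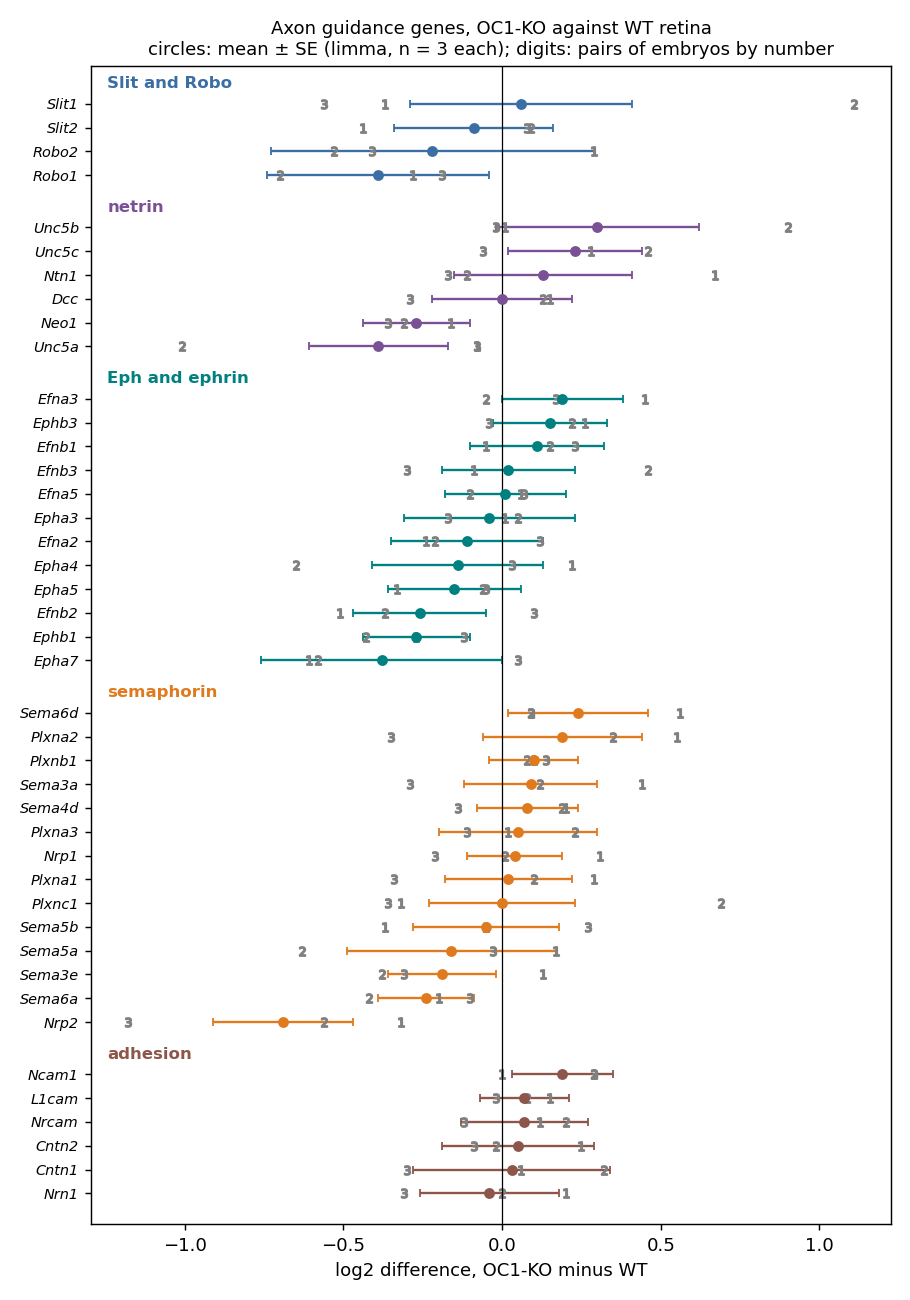
Differences between OC1-KO and WT retinas for the 42 axon guidance genes above the filter, grouped by family (rows). The x axis is the log2 difference, OC1-KO minus WT; circles are means, bars the SE from limma (n = 3 embryos each) and the digits 1 to 3 the difference within the pair of embryos of that number. Nrp2, at -0.69, lies farthest from 0.

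Nrp2 encodes neuropilin-2, the co-receptor through which class 3 semaphorins such as Sema3F act together with plexins. Its log2 signal was 6.90, 6.46 and 6.14 in OC1-KO 1, 2 and 3, and 7.22, 7.03 and 7.32 in WT 1, 2 and 3. All 3 OC1-KO values lay below all 3 WT values, and OC1-KO was lower in each pair, most in pair 3 (-0.32, -0.56 and -1.18). The difference was -0.69 ± 0.22 (SE, n = 3 each; limma, unadjusted p = 0.0172, adjusted p = 1.00), or 0.62 of the WT signal, and the exact two-sided permutation p was 0.1, the smallest that 3 against 3 embryos allow. Nrp2 passed the filter through its WT mean alone (6.50 in OC1-KO, 7.19 in WT), so a mean lower in OC1-KO was a condition of its being counted. In the embryos numbered 1 and 2 alone the difference was -0.44 (limma, unadjusted p = 0.101). Its 3 other probe sets stayed below the filter in both genotypes. The next brightest of them read 6.84, 6.43 and 6.71 in OC1-KO and 6.45, 6.59 and 7.01 in WT, which overlap.

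Nrp1, the sister co-receptor that binds Sema3A and VEGF, had 4 probe sets above the filter, and they did not move as one. The brightest read 10.57, 10.50 and 10.38 in OC1-KO 1, 2 and 3, and 10.27, 10.49 and 10.59 in WT 1, 2 and 3, a difference of 0.04 ± 0.15 (SE, n = 3 each) with overlapping groups. Another read 9.25, 9.22 and 9.26 in OC1-KO, and 9.63, 9.39 and 9.55 in WT. Those groups did not overlap, with a difference of -0.28 ± 0.14 (limma, unadjusted p = 0.0841; with the block, 0.0508; the methods' t-test over 3 against 3 embryos, unadjusted p = 0.0170, where the exact permutation test cannot go below 0.1). The other two had differences of -0.09 and -0.08.

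The ligands of this family gave small differences that overlapped for all but Sema6a. Sema6a, a transmembrane semaphorin that signals through plexins A2 and A4, read 9.17, 9.23 and 9.24 in OC1-KO 1, 2 and 3, and 9.38, 9.66 and 9.35 in WT 1, 2 and 3. OC1-KO was lower in all 3 pairs and the groups did not overlap, but the difference of -0.24 ± 0.15 (SE, n = 3 each) did not pass (limma, unadjusted p = 0.152; with the block, 0.0985). Sema6d, which with Nrcam and plexin A1 guides crossing at the chiasm, ran the other way, with 11.14, 10.69 and 10.41 in OC1-KO 1, 2 and 3, and 10.57, 10.61 and 10.32 in WT 1, 2 and 3. It was higher in OC1-KO in all 3 pairs by 0.56, 0.09 and 0.09, with a mean of 0.24 ± 0.22 (limma, unadjusted p = 0.299), so most of it lay in pair 1. Sema4d, the ligand of plexin B1, read 10.68, 10.78 and 10.73 in OC1-KO and 10.48, 10.59 and 10.87 in WT, a difference of 0.08 ± 0.16. Sema3a, a secreted repellent, differed by 0.09, Sema3e by -0.19, and Sema5b by -0.05 at its brightest probe set.

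Sema5a and Sema5b, transmembrane semaphorins that confine neurites to the inner retina, each had a second probe set above the filter. For Sema5a the brightest differed by -0.16 ± 0.33. Its second probe set read 8.08, 8.29 and 8.21 in OC1-KO and 8.38, 8.44 and 8.51 in WT, without overlap, a difference of -0.25 ± 0.14 (limma, unadjusted p = 0.116; the methods' t-test, 0.0221, with an exact permutation floor of 0.1). The second probe set of Sema5b read 6.99, 6.95 and 7.27 in OC1-KO and 7.52, 7.03 and 7.89 in WT, groups that overlapped, with a difference of -0.41 ± 0.24 (limma, unadjusted p = 0.131; with the block, 0.0350). Of the 7 semaphorin ligands above the filter, 3 had the higher mean in OC1-KO and 4 the lower, with a median of -0.05. Of the 7 plexins and neuropilins above it, 6 had the higher mean and 1, Nrp2, the lower, with a median of 0.04. Plxnb1, receptor of Sema4d, was the other gene higher in OC1-KO in all 3 pairs, by 0.10, 0.08 and 0.14 at its brightest probe set, while its second gave -0.33, 0.32 and -0.44, with a mean of -0.15. Plxna1, Plxna2, Plxna3 and Plxnc1 differed by 0.02, 0.19, 0.05 and 0.00, each with overlapping groups.

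**Figure D2:**
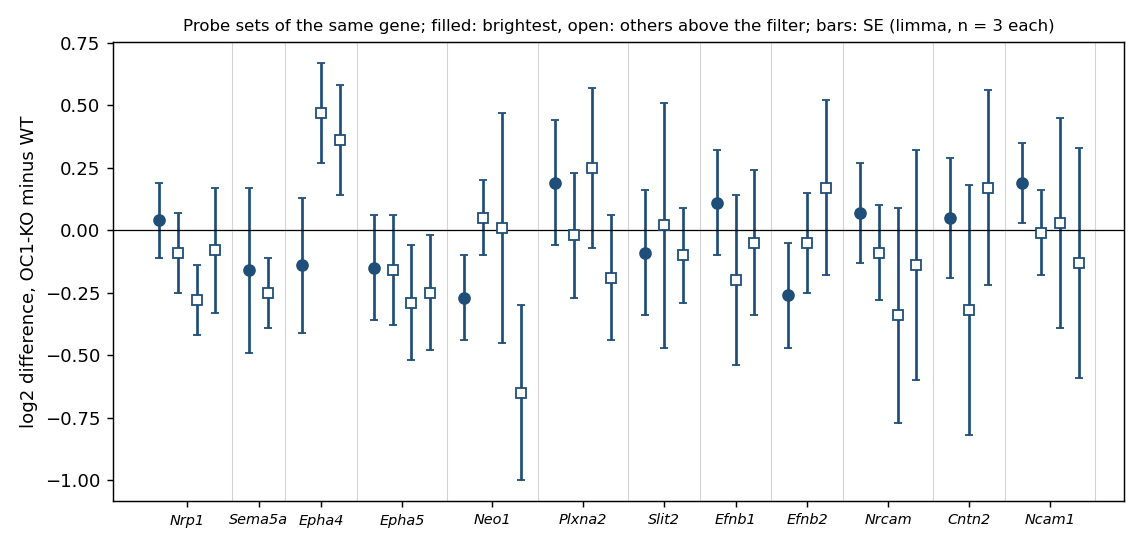
Log2 differences (y axis, OC1-KO minus WT; bars, SE from limma, n = 3 embryos each) of each probe set above the filter for 12 of the axon guidance genes (x axis) with more than 1 such probe set. Filled circles are the brightest probe sets and open squares the others; the 4 of Epha5 all lie below 0, whereas those of Nrp1, Epha4 and Plxna2 lie on both sides.

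The Eph receptors, which read ephrins on other cells and mostly repel, had their means lower in OC1-KO for 5 of the 6 above the filter (median -0.14), and 0 passed limma at an unadjusted p under 0.05 in either direction; all genes divide at 51.0% lower. Of the 5, Epha4 had its 2 other probe sets above the filter higher in OC1-KO. The other such probe sets of Epha3, Epha5 and Epha7 were lower. Ephb1 is the receptor by which ganglion cells of the ventrotemporal retina are turned back from the midline by ephrin-B2. It read 9.21, 8.83 and 9.12 in OC1-KO 1, 2 and 3, and 9.48, 9.26 and 9.24 in WT 1, 2 and 3. The groups did not overlap, and OC1-KO was lower in each pair, by a mean of -0.27 ± 0.17 (SE, n = 3 each; limma, unadjusted p = 0.148; with the block, 0.0683). Nrp2, Ephb1 and Sema6a were the 3 members whose OC1-KO values all lay below the WT values, against 1.99% of all genes, and 0 members lay above, against 1.77%. Of the 3, Nrp2 passed the filter through its WT mean alone.

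Epha5, a receptor graded across the retina that sets the map of nasal and temporal axons, read 11.21, 11.42 and 10.95 in OC1-KO 1, 2 and 3, and 11.54, 11.48 and 11.00 in WT 1, 2 and 3. All 4 of its probe sets gave negative differences, from -0.29 to -0.15, none of them past the test (lowest limma p unadjusted 0.254). Epha7 read 7.02, 7.84 and 8.39 in OC1-KO and 7.63, 8.42 and 8.34 in WT, a difference of -0.38 ± 0.38 that lay in pairs 1 and 2 (-0.61 and -0.58) and was 0.05 in pair 3. It was -0.02 without OC1-KO 1 and -0.70 without OC1-KO 3. Epha4 could not be read in one direction. Its brightest probe set differed by -0.14 ± 0.27, with overlap, while a second read 8.64, 8.03 and 8.02 in OC1-KO and 7.79, 7.70 and 7.78 in WT. That second set was higher in OC1-KO without overlap, by 0.47 ± 0.20 (limma, unadjusted p = 0.0544; with the block, 0.0286). The third differed by 0.36. Epha3 and Ephb3 differed by -0.04 and 0.15.

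The ephrin ligands were divided, with 4 of 6 higher in mean in OC1-KO and a median of 0.02. Efnb2, made in the dorsal retina and by glia at the chiasm midline, read 12.03, 12.04 and 12.68 in OC1-KO 1, 2 and 3, and 12.53, 12.41 and 12.58 in WT 1, 2 and 3. OC1-KO 1 and 2 lay below every WT value and OC1-KO 3 above every one, and the mean difference was -0.26 ± 0.21 (limma, unadjusted p = 0.262). Without OC1-KO 3 it was -0.47 (limma, unadjusted p = 0.0235), and in the embryos numbered 1 and 2 alone -0.44 (0.0445), while without OC1-KO 1 or OC1-KO 2 it was -0.15. Its other probe sets above the filter differed by -0.05 and 0.17, and the mean of the probe sets by -0.05 (limma, unadjusted p = 0.833). Efna5 and Efna2, repellents that set the map of ganglion cell axons in the brain, differed by 0.01 and -0.11. Efna3, Efnb1 and Efnb3 differed by 0.19, 0.11 and 0.02. At other probe sets above the filter Efnb1 gave -0.20 and -0.05, and Efna2 gave 0.23.

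The Slits and Robos had 4 members above the filter, 3 of them lower in mean in OC1-KO, with a median of -0.15. Robo1, a receptor for the Slit repellents, read 8.34, 8.98 and 9.29 in OC1-KO 1, 2 and 3, and 8.61, 9.69 and 9.47 in WT 1, 2 and 3. The groups overlapped widely, since both embryos numbered 1 were low, but OC1-KO was lower in each pair, with pair differences of -0.28, -0.70 and -0.19. The mean of -0.39 ± 0.35 (SE, n = 3 each) had a limma p unadjusted of 0.307 without the block and of 0.0408 with it, and an adjusted p of 1.00 by both fits. Without the block, leaving out 1 array moved it from -0.71 (without WT 1) to -0.12 (without OC1-KO 1). Robo2, the main Slit receptor of ganglion cell axons, read 7.94, 8.13 and 6.68 in OC1-KO, and 7.65, 8.67 and 7.09 in WT, a difference of -0.22 ± 0.51. Both embryos numbered 3 were low, and the spread within each genotype was larger than the difference. Slit2 read 10.06, 10.95 and 10.75 in OC1-KO and 10.50, 10.86 and 10.67 in WT (-0.09 ± 0.25), and Slit1 differed by 0.06 ± 0.35.

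Of the 6 netrin family members above the filter, 3 were higher and 3 lower in mean in OC1-KO, with a median of 0.06. Netrin signalling centres on Dcc, the receptor through which netrin-1 attracts axons to the optic disc. Dcc read 11.87, 12.39 and 11.92 in OC1-KO 1, 2 and 3, and 11.72, 12.26 and 12.21 in WT 1, 2 and 3, a difference of -0.00 ± 0.22. Ntn1, the ligand, differed by 0.13 ± 0.28. Neo1, which binds netrins and repulsive guidance molecules, read 10.29, 10.52 and 10.47 in OC1-KO and 10.45, 10.83 and 10.83 in WT, lower in each pair by a mean of -0.27 ± 0.17 (limma, unadjusted p = 0.151; with the block, 0.0553). Another bright probe set of Neo1 gave 0.05 ± 0.15. The repulsive Unc5 receptors spread to both sides. Unc5a read 6.94, 6.52 and 7.14 in OC1-KO and 7.02, 7.53 and 7.22 in WT, a difference of -0.39 ± 0.22 that came mostly from pair 2 (-1.01, against -0.08 in pairs 1 and 3), and it too passed the filter through WT alone. Unc5b read 7.48, 7.44 and 7.73 in OC1-KO and 7.47, 6.54 and 7.76 in WT, where WT 2 alone was low. Its difference was 0.30 ± 0.32, and -0.06 without WT 2. Unc5c read 9.95, 9.95 and 9.36 in OC1-KO and 9.67, 9.50 and 9.42 in WT, a difference of 0.23 ± 0.21, which was 0.42 without OC1-KO 3 (limma, unadjusted p = 0.0419) and 0.13 without OC1-KO 1 or OC1-KO 2. Its second probe set above the filter differed by -0.07, and the mean of its probe sets by 0.08.

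The adhesion molecules of axons gave small differences, with 5 of 6 higher in mean in OC1-KO and a median of 0.06. Ncam1, the neural cell adhesion molecule, read 13.36, 13.29 and 13.52 in OC1-KO 1, 2 and 3, and 13.36, 13.00 and 13.23 in WT 1, 2 and 3, a difference of 0.19 ± 0.16. L1cam, on which ganglion cell axons bundle, read 12.17, 11.94 and 11.99 in OC1-KO and 12.02, 11.86 and 12.00 in WT, a difference of 0.07 ± 0.14. Nrcam, Cntn1, Cntn2 and Nrn1, molecules of growing or crossing axons, differed by 0.07, 0.03, 0.05 and -0.04. At their brightest probe sets all 6 genes had overlapping groups, and their differences lay between -0.04 and 0.19. Other probe sets above the filter did not all share these signs. Those of Nrcam gave -0.09, -0.34 and -0.14, and those of Ncam1 -0.01, -0.13 and 0.03. Those of Cntn2 gave -0.32 and 0.17, and that of Cntn1 gave 0.11.

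**Figure D3:**
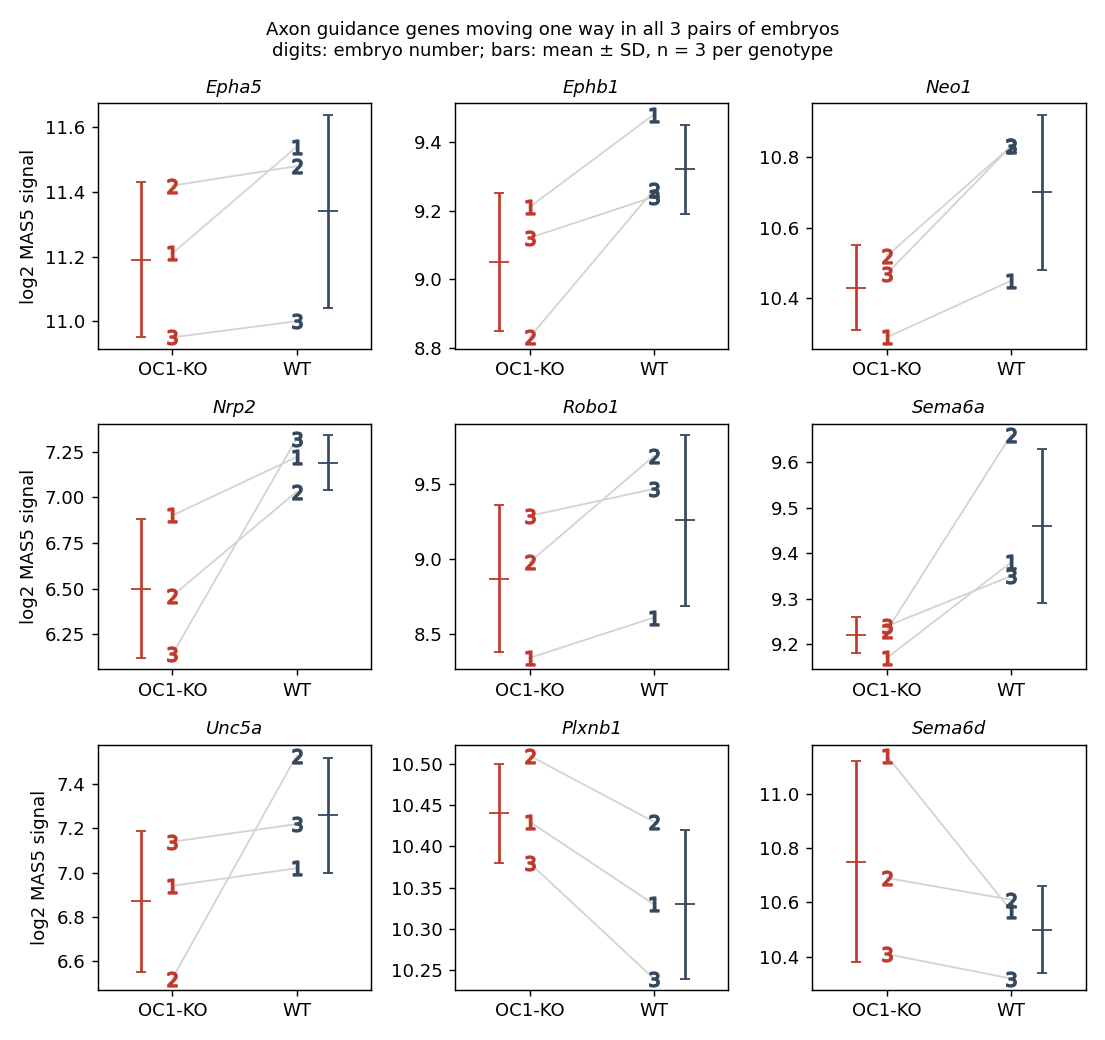
Log2 MAS5 signal (y axis, a separate scale for each gene) in OC1-KO (left) and WT (right) retinas of the 9 members that went one way in all 3 pairs; digits are embryo numbers, grey lines join embryos of the same number, and bars are the mean ± SD (n = 3 each). OC1-KO lies wholly below WT in the panels of Nrp2, Ephb1 and Sema6a, and the groups overlap in the other 6.

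Read by pairs, 7 of the 42 members (16.7%) were lower in OC1-KO in all 3: Nrp2, Robo1, Ephb1, Epha5, Neo1, Unc5a and Sema6a. Over all genes this held for 12.8%. Of the 7, Nrp2 and Unc5a passed the filter through their WT means alone. For these genes a mean lower in OC1-KO was a condition of being counted. Higher in all 3 were 2 members (4.76%), Sema6d and Plxnb1, against 10.9% of all genes. The median difference over the members was 0.06 in pair 1, 0.03 in pair 2 and -0.11 in pair 3. Of the genes named in these sentences, Neo1, Ephb1 and Plxnb1 share chromosome 9 with Onecut1, at 15.8, 27.0 and 34.2 Mb from it (assembly GRCm38.p6), where the strain of the stem cells and the genotype cannot be told apart.

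In some members both embryos numbered 3 stood apart from the other 4, whatever the genotype. In 12 of the 42 (28.6%), among them Robo2, Cntn1, Epha3, Plxna3 and Nrn1, both embryos numbered 3 lay below the other 4, as did 21.1% of all genes. In 5, Cntn2, Efnb1, Efnb2, Sema5a and Unc5b, both lay above them, against 15.8% of all genes. Robo2 lay farthest from the others, with embryo 3 -1.35 from the mean of embryos 1 and 2 in OC1-KO and -1.06 from it in WT. For Cntn1, a glycoprotein of axons, the shifts were -0.98 in OC1-KO and -0.49 in WT, and for Sema5a 0.88 in OC1-KO and 0.68 in WT. These are the embryos whose retinas carried the lens, blood and mesenchyme signal; the part of that RNA in these shifts was not tested.

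**Figure D4:**
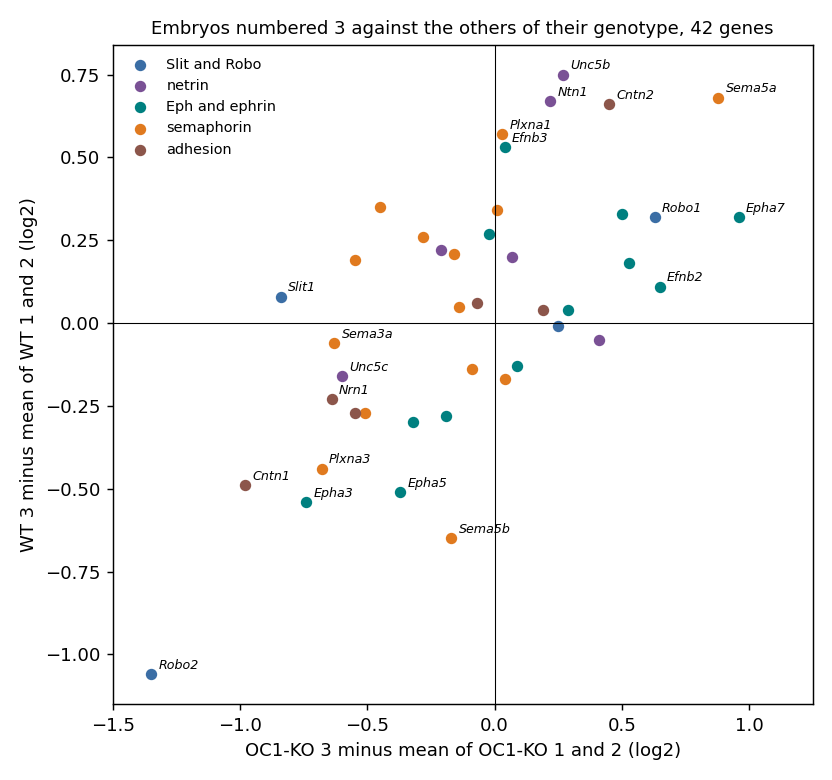
Shift of the embryo numbered 3 from the mean of embryos 1 and 2 in OC1-KO (x axis, log2) and in WT (y axis, log2) for the 42 axon guidance genes, coloured by family. Robo2 lies at the lower left, at -1.35 for OC1-KO and -1.06 for WT, and Sema5a at the upper right (0.88 for OC1-KO, 0.68 for WT).

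Members below the filter had means over the 6 arrays from 3.11 (Slit3) to 6.87 (Plxna4). Nrp2, counted above the filter, had a mean of 6.84. Slit3 read 2.58, 2.10 and 3.33 in OC1-KO and 4.91, 3.82 and 1.91 in WT, a difference of -0.88 ± 0.81. Alcam, an adhesion molecule of ganglion cell axons, read 5.97, 5.53 and 7.53 in OC1-KO and 6.80, 6.47 and 7.39 in WT (-0.54 ± 0.58), and Sema3c 6.61, 6.87 and 6.30 in OC1-KO and 5.26, 6.50 and 6.43 in WT (0.53 ± 0.40). In each of the 3 genes OC1-KO and WT values overlapped. Robo3, Unc5d and Plxna4 differed by 0.20, -0.11 and -0.21.

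Guidance genes outside these 49 gave a like picture. Of 50 further ligands and receptors of the same and related families, 34 were above the filter, 14 higher and 20 lower in mean in OC1-KO, with a median of -0.03. By limma 1 was lower at an unadjusted p under 0.05, against 0.542% of all genes, and 0 were higher. This was Rgmb, a repulsive guidance molecule that binds the Neo1 product, with 9.43, 9.37 and 9.64 in OC1-KO 1, 2 and 3, and 9.96, 9.75 and 10.03 in WT 1, 2 and 3. Its groups did not overlap, and its difference was -0.43 ± 0.16 (SE, n = 3 each; limma, unadjusted p = 0.0286, adjusted p = 1.00; with the block, unadjusted p = 0.00975). It was no longer under 0.05 with no filter on low values, with the mean of its probe sets, or without OC1-KO 1, OC1-KO 2, WT 1 or WT 3. Sema4a went the other way, with 7.38, 7.47 and 7.30 in OC1-KO and 7.17, 7.07 and 7.10 in WT, without overlap. Its difference was 0.27 ± 0.14 (limma, unadjusted p = 0.0888, and the methods' t-test, 0.00937, with an exact permutation floor of 0.1). Of the 34, 1 lay wholly below WT and 1 wholly above, against 1.99% and 1.77% of all genes. By pairs, 6 (17.6%) were lower in all 3 and 4 (11.8%) higher, against 12.8% and 10.9% of all genes. Of 26 genes that act downstream of the receptors, such as Dpysl2, Enah and Srgap1, 21 were above the filter, 14 higher and 7 lower, and 0 passed limma at an unadjusted p under 0.05. Of 12 transcription factors that set the guidance receptors of ganglion cells, 8 were above it, 3 higher and 5 lower. Zic2, which turns on Ephb1 in the ventrotemporal retina, read 9.27, 9.61 and 10.23 in OC1-KO and 9.30, 9.75 and 10.61 in WT, lower in OC1-KO in each pair by a mean of -0.18 (limma, unadjusted p = 0.651; with the block, 0.197). Foxd1, which marks that temporal retina, read 8.92, 9.13 and 9.71 in OC1-KO and 9.35, 9.41 and 10.19 in WT, a difference of -0.40 with overlapping groups (limma, unadjusted p = 0.230; with the block, 0.0146). The 3 that were higher in mean in OC1-KO were Vax1 and Vax2, factors of the ventral eye, and Isl2, a factor of crossing ganglion cells. Vax1 and Vax2 also mark the optic stalk, and the part of stalk tissue in their values was not tested. Vax1 read 8.90, 8.40 and 7.75 in OC1-KO and 7.51, 7.89 and 7.95 in WT, with overlap, a difference of 0.57 ± 0.30 that was the largest of the 8 (limma, unadjusted p = 0.102; with the block, 0.115). Vax2 and Isl2 differed by 0.22 and 0.18, and Tbx2, Tbx3 and Lhx2 by -0.09, -0.20 and -0.18, all with overlapping groups. Of the 8, 3 (Zic2, Foxd1 and Tbx3) were lower in OC1-KO in all 3 pairs (37.5%, against 12.8% of all genes). Higher in all 3 were 0, against 10.9%. In Zic2, Foxd1, Tbx3 and Lhx2 both embryos numbered 3 lay above the other 4 (50.0%, against 15.8% of all genes).

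Promoters were read for core letters that Onecut factors bind, ATTGAT or ATCGAT, on either strand, in the 250 bases before each RefSeq start of transcription (assembly GRCm38.p6). Other forms of the core were not read. Of the 49 members, 39 had 49 such windows, of which 3 (6.1%) held ATTGAT and 0 held ATCGAT. Of 32851 windows of all genes, 6.7% held ATTGAT and 0.7% ATCGAT. The first 2 sequences are those of Nrp2 and Ephb1, members whose groups did not overlap, and neither holds the letters. The other 3, of Epha7, Sema6d and Cntn1, are the windows that hold a match, set in capitals, which begins 17, 143 and 189 bases before the start; ATCAAT is ATTGAT read on the opposite strand. A match is a description of the letters, not a bound site, and its absence says nothing beyond this window. All are written 5′ to 3′ along the strand of the gene.
Nrp2 (chr1:62703067-62703316, plus strand): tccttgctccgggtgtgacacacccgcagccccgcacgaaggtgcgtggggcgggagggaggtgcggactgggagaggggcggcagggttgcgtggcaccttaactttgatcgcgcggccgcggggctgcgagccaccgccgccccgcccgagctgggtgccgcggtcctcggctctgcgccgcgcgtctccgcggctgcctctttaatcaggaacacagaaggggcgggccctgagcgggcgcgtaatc
Ephb1 (chr9:102354694-102354943, minus strand): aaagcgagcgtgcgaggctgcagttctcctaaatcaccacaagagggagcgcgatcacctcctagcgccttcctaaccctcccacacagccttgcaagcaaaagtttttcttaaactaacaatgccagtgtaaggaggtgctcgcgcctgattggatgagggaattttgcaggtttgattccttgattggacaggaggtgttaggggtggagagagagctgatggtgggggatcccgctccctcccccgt
Epha7 (chr4:28812895-28813144, plus strand): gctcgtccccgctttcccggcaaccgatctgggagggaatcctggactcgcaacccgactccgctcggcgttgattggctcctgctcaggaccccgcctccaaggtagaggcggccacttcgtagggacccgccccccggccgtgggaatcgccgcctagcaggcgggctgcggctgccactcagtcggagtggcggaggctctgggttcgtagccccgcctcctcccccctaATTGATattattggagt
Sema6d (chr2:124089719-124089968, plus strand): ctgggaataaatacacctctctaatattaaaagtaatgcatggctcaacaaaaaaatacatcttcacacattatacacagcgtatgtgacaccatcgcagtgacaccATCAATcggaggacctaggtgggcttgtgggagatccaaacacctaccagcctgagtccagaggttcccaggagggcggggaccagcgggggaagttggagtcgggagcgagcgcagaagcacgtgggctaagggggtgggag
Cntn1 (chr15:92161107-92161356, plus strand): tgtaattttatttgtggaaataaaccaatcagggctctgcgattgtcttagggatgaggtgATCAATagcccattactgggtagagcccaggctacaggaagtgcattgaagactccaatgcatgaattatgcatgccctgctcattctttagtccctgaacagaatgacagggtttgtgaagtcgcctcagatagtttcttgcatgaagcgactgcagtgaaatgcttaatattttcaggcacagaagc
Of the 3 genes with a match, Epha7 differed by -0.38, Sema6d by 0.24 and Cntn1 by 0.03.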

How the data were processed

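Log2 was taken of the intensity values the authors deposited, MAS5 signals from Affymetrix mouse genome arrays made with the affy package, in which each array has a 2% trimmed mean of 500; no MAS5 version is given in the sources used here. Precision rests on 3 embryos per genotype, and on each array 43.4% to 46.7% of probe sets exceeded a log2 signal of 7.

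The array has 45101 probe sets. Leaving out 64 controls, the 20888 with a mean log2 over 7 in OC1-KO or WT, the study's filter, were tested. GEO's platform annotation gave 34945 probe sets 1 symbol (34741 matched RefSeq by Entrez ID), 932 several and 9160 none. Genotypes were compared, OC1-KO minus WT, with limma (version 3.58.1, R 4.3.3; lmFit, then eBayes with no trend), with Benjamini-Hochberg adjustment, tested first on simulated data. Members below the filter were fitted over all probe sets. Python 3.11.15 and matplotlib 3.10.9 were also used.

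Arrays with the same embryo number pair: their deviations from the genotype means correlate at 0.51 to 0.67, and the best partner of all 6 arrays is the one of the same number. This rests on the values, since the labels state no pairs.

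The genes named with full values have an unadjusted p under 0.05 by limma, limma with the block or the methods' t-test, or groups that do not overlap; or they are the 2 brightest of a family, the 3 largest differences each way, or the 5 largest ranges. Nrp1, Sema5a, Sema5b, Epha4, Zic2, Foxd1, Vax1, Rgmb and Sema4a were added after their values were seen. The study's published lists had also been seen, and hold Nrp1, Nrp2 and a Sema5 gene among those lower in OC1-KO. Members, lists and tests were chosen with earlier results of these data known. The alternatives were the embryo number as a block, the methods' t-test, an intensity trend, no filter, a filter at 8, quantile normalization, median centring, an offset of 32, the mean of a gene's probe sets, each array left out, and embryos 1 and 2 alone.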

Additional observations from a re-analysis of the deposited data

How the results depend on the processing

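With the embryo number as a block, the axon guidance genes at an unadjusted p under 0.05 numbered 2, Nrp2 and Robo1, against 1 without it, and the block changed no other call of a member by its brightest probe set. With a filter at a mean log2 of 8 they numbered 0, since Nrp2 lies below it. Leaving out each array in turn gave 0 to 3: 3 without OC1-KO 3 (Nrp2, Efnb2 and Unc5c) and 0 without WT 3, where Nrp2 was at -0.63 (limma, unadjusted p = 0.0535). The median difference of the members was 0.11 in embryos 1 and 2 alone, against 0.02 in all 6, and -0.08 to 0.07 with each array left out. Of the other guidance ligands and receptors, 0 passed with no filter on low values or with the mean of probe sets, 2 (Rgmb and Sema4a) with quantile normalization or the methods' t-test, and 0 to 1 with each array left out, Rgmb being lost without OC1-KO 1, OC1-KO 2, WT 1 or WT 3. The number of probe sets at an adjusted p under 0.05 was 0 in every setting run. Quantile normalization put 4 members, Ncam1 added, among those whose groups do not overlap.

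Of the 180 values of the 22 genes named by rule, outside the left-out arrays, 178 kept their direction. The other 2 were of Dcc, at -0.00 in the report, which was 0.14 in embryos 1 and 2 alone and 0.01 with median centring. With each array left out, Dcc ran from -0.18 to 0.09, Robo2 from -0.57 to 0.23, Slit2 from -0.27 to 0.17 and Unc5b from -0.06 to 0.55, so that none of these 4 has a stable sign, and Nrp2 ran from -0.89 to -0.51 with adjusted p of 0.999 to 1.00 over all settings. The cause of these changes was not tested.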
